A study of Bos taurus with 4 samples.

Results

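The distal intergenic 8-oxoG loci of bull sperm that lay no more than 100 kb from the transcription start site (TSS) of their assigned gene numbered 220 of 984 listed loci, 86 of 370 in the fertile bull C13 and 134 of 614 in the infertile bull C14. They were taken as every listed locus that the authors' annotation classed as distal intergenic and whose distance to the TSS was at most 100000 bp on either side. Sperm DNA came from 2 Korean native striped bulls of 6 years of age, C13 with normal fertility and C14 without. Each bull gave a single 8-oxoG-enriched library and a single input library of the same sperm DNA, so no value could be compared with a spread between animals or libraries. All coordinates are those of the lists, in the bovine build bosTau8.

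8-oxoG is the most common oxidised form of guanine. Polymerases can misread it, so that an unrepaired lesion can leave a mutation, and the glycosylase OGG1 cuts it out of DNA. Maturing spermatids lose most of this repair as their chromatin is packed. OG-seq attaches biotin to 8-oxoG in sheared DNA, captures the fragments on streptavidin beads and sequences the released strands, so that fragments pile up around the modified bases. Intergenic DNA near a gene can hold enhancers and other control elements, but the annotation joins a locus to a gene by nearness to the TSS alone and gives no evidence that the locus acts on that gene. An annotated distal intergenic locus lies outside every gene and beyond the promoter and downstream windows, so none of these loci could lie right at a TSS, and a locus on the downstream side had to lie past the far end of its gene.

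The lists give for each locus a pileup, which is the number of 8-oxoG fragments over its summit, and a fold enrichment, which divides the pileup by the background that the input gave around the locus, after 1 is added to each. This local background was worked back from the pileup and the fold. The lowest local background of a list is the level that applied where the input showed nothing higher, and it stood at 0.135 fragments for C13 and 0.359 for C14, which is 2.66 times as much. Shares are given with Wilson 95% confidence intervals, which cover counting error only. The 5 Fisher's exact tests compare lists of loci and not fertile with infertile bulls, and neighbouring loci are not independent. None of the 5 passed 0.05, and the p-values adjusted over them ran from 0.584 to 0.804.

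These loci took up a similar share of both lists. They made up 23.2% of all C13 loci (95% interval 19.2% to 27.8%) and 21.8% of all C14 loci (18.7% to 25.3%; Fisher's exact test, two-sided, p = 0.636). Among the distal intergenic loci alone they were 30.3% of 284 in C13 (25.2% to 35.9%) and 29.2% of 459 in C14 (25.2% to 33.5%; by the same test, exact p = 0.804). The C13 loci just inside the limit belonged to SET at 96521 bp and MTTP at 99158 bp, and those just outside to CHRM3 at 100317 bp and CD200 at 102136 bp. In C14 the loci just inside belonged to MGC134093 at 97924 bp and NDUFAF4 at 98862 bp, and those just outside to VIP at 102048 bp and CD200 at 102135 bp. The CD200 loci outside the limit had pileups of 15 in C13 and 28 in C14, and CD200, a surface glycoprotein that restrains myeloid cells, also had a locus inside it in C13, 15019 bp upstream with a pileup of 11.

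In both bulls most of these loci lay upstream of the gene. In C13 sperm 58 of 86 were upstream (67.4%, 57.0% to 76.4%), and in C14 sperm 104 of 134 (77.6%, 69.8% to 83.8%). The difference between the lists was 10.2 points and did not pass 0.05 (two-sided Fisher's exact test, p = 0.117). Among the loci with a −log10 q of at least 5 the upstream shares were 66.1% in C13 and 82.6% in C14 (Fisher's exact p = 0.0220 before adjustment), and this was the single alternative of 9 in which the difference passed 0.05. At 100 to 400 kb the upstream shares of distal intergenic loci were 51.7% of 120 and 55.5% of 191, and beyond 400 kb they were 53.8% of 78 and 61.9% of 134. Intron loci lay the other way, with 25.3% of 83 upstream in C13 and 16.9% of 142 in C14. An intron locus lies past the TSS of the gene that holds it, so a low upstream share is set by the class itself.

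**Figure D1:**
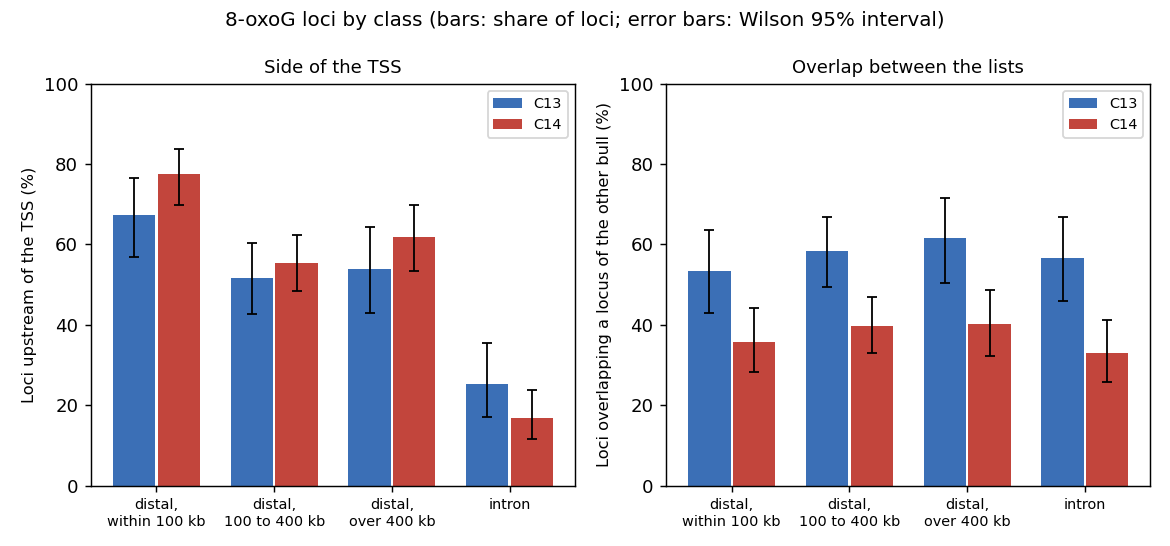
Share of 8-oxoG loci upstream of the TSS (left, %) and share overlapping a locus of the other bull (right, %) for distal intergenic loci in 3 ranges of distance and for intron loci, with bars for the C13 list and the C14 list and Wilson 95% intervals as error bars. The upstream share within 100 kb is 67.4% in C13 and 77.6% in C14, above that of the other classes, while the intervals of the overlap shares of the 4 classes overlap each other in each bull. The low upstream share of intron loci is set by their class, since they lie inside a gene.

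The genes on the 2 sides differed in length. The 37 genes with upstream loci in C13 had a median length of 37236 bp and 11 of them were over 60 kb long, and the 63 such genes in C14 had a median of 37947 bp with 21 over 60 kb. The 19 genes with downstream loci in C13 had a median length of 5619 bp, the 26 in C14 had a median of 12332 bp, and none was over 60 kb, the longest being 57326 bp and 44031 bp. A gene that fills the window on its downstream side leaves no intergenic DNA there to be counted. How much of the upstream excess follows from this was not tested.

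The loci began about 4 kb from the TSS. In C13 the nearest was 4166 bp upstream of EIF4EBP2, a repressor of translation initiation, with a pileup of 4. In C14 the nearest was 3970 bp upstream of YWHAZ, a 14-3-3 adaptor protein, with a pileup of 13. The nearest downstream loci were 10588 bp from the TSS of NDUFB2, a subunit of respiratory complex I, in C13 and 5171 bp from that of CETN1 in C14. Within 10 kb all 10 loci of C13 and 17 of the 18 loci of C14 were upstream. From 10 to 25 kb the upstream and downstream counts were 13 and 7 in C13 and 21 and 6 in C14. From 25 to 50 kb they were 11 and 7 and, in C14, 28 and 10, and from 50 to 100 kb they were 24 and 14 and, in C14, 38 and 13. The distances had medians of 46249.5 bp for C13 loci and 40055 bp for C14 loci.

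The loci nearest to a TSS had the highest median pileup in each list. Within 10 kb it was 19 fragments in C13 and 26 in C14, while the 3 outer ranges had medians between 7 and 10.5 in C13 and between 14 and 16 in C14. The median fold enrichment within 10 kb was 9.22 in C13 and 9.07 in C14, and in the outer ranges it lay between 7.05 and 8.10 and between 6.21 and 7.68. In C13 the high values within 10 kb rest on few genes. Its loci with pileups of 17 or more came from OTOR, KLF9 and TMPRSS7, each with 2 loci, those of OTOR being subpeaks of 1 interval. In C14 such pileups also came from other genes, among them MGC134093 with 45, CETN1 with 36 and GIPC2 with 29. OTOR encodes otoraplin, a secreted protein of the inner ear, KLF9 a zinc finger transcription factor, and TMPRSS7 a membrane-anchored serine protease.

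**Figure D2:**
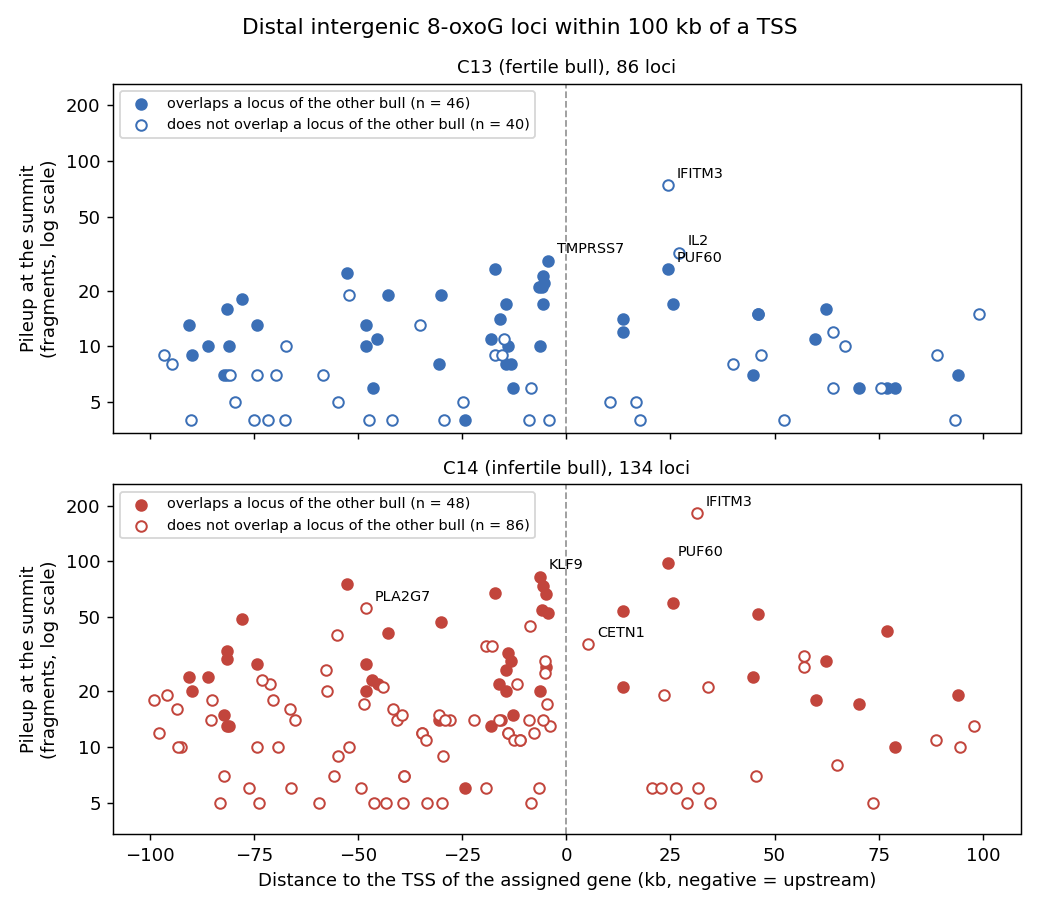
Pileup at the summit (fragments, log scale) of each distal intergenic 8-oxoG locus against its distance to the TSS of the assigned gene (kb, negative values upstream), for C13 with 86 loci above and C14 with 134 loci below, with filled points for loci that overlap a locus of the other bull. Upstream points outnumber downstream points in both panels, 58 to 28 in C13 and 104 to 30 in C14, and IFITM3 has the highest point in each.

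The median pileup was 9 fragments in C13 (order-statistic 95% interval 7 to 11, range 4 to 74) and 15 fragments in C14 (14 to 19, range 5 to 182). The median fold enrichment was 7.35 in C13 (6.82 to 8.64) and 7.10 in C14 (6.21 to 7.68), so the lists differed in pileup and their fold intervals overlapped. The median local background was 0.159 fragments in C13 and 0.869 in C14. The 1 added to each term of the fold thus weighed more in C13, and similar folds need not mean similar enrichment over the input. Distal intergenic loci at 100 to 400 kb had median pileups of 10.5 in C13 and 19 in C14, and intron loci 11 and 21.5. The local background was at the lowest value of its list, to within 1%, at 36 of the 86 C13 loci and at 9 of the 134 C14 loci, and it exceeded 10 times that value at 7 and 19. Widths were alike, with medians of 234 bp for C13 loci and 227.5 bp for C14 loci. A −log10 q of at least 5 was reached by 62 of the 86 loci of C13, against 70% of all C13 loci, and by 92 of the 134 loci of C14, against 68.4% of all C14 loci. A pileup of 7 or less stood behind 34 loci of C13 and 27 of C14.

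The highest pileup of either list was assigned to IFITM3, an interferon-induced membrane protein that blocks virus entry. In C13 the locus lay 24399 bp past the TSS (chr11:107285144-107285465) with 74 fragments and a fold of 4.92, and in C14 it lay 31280 bp past the TSS (chr11:107292025-107292220) with 182 fragments and a fold of 3.63. The intervals did not overlap, being 6560 bp apart. The local background was 14.2 fragments in C13 and 49.5 in C14, so the input was also high at these places. In a RefSeq gene table of the later assembly ARS-UCD2.0 the IFITM3 gene is on another chromosome than in the lists. The same holds for SET, CHRM3, YWHAZ and RPS15A, and the listed gene copies of these 5 symbols are short, between 458 and 1393 bp, so which gene these loci lie near is uncertain. IL2, the cytokine that drives T cell growth, had the next highest pileup among these loci in C13, 32 fragments at a background of 10.2 and a fold of 2.94, and no locus in C14.

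Of the 86 loci of C13, 46 shared 1 bp or more with a C14 locus (53.5%, 43.0% to 63.7%), against 57% of all C13 loci. Of the 134 loci of C14, 48 overlapped a C13 locus (35.8%, 28.2% to 44.2%), against 36.6% of all C14 loci. Each partner was itself distal intergenic within 100 kb. The other distal intergenic loci overlapped at 59.6% of 198 in C13 and 40% of 325 in C14, and both differences lay within counting error (two-sided Fisher's exact test, p = 0.362 in C13 and p = 0.461 in C14). The overlapping loci had median pileups of 12.5 in C13 and 25 in C14 and median folds of 9.54 and 9.34. The loci without overlap had median pileups of 6.5 and 12 and median folds of 5.29 and 6.22.

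Loci without overlap were nearer to a locus of the other bull in C13 than in C14. The lists searched differed in length, 614 C14 loci for the loci of C13 and 370 C13 loci for those of C14. A longer list leaves shorter gaps, and how much of the difference follows from this was not tested. Of the 40 such loci of C13, 21 had a C14 locus within 20 kb (52.5%, against 40.9% over all classes) and 16 had none within 100 kb. These 16 are 18.6% of the 86 loci, against 21.4% of all C13 loci. Of the 86 such loci of C14, 26 had a C13 locus within 20 kb (30.2%, against 42.2% over all classes), 55 had none within 100 kb and 45 had none within 1 Mb. These 55 are 41.0% of the 134 loci, against 31.3% of all C14 loci, and the 45 are 33.6%, against 24.9%. No test was made of these shares. A −log10 q of at least 5 was reached by 6 of the 16 in C13 and by 25 of the 55 in C14 (37.5% and 45.5%, against 34.2% and 34.4% of such loci of all classes).

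Several of the C14 loci with no C13 locus within 100 kb had high values. CETN1 encodes a centrin of the centriole that is expressed in the testis, and its locus (chr24:35875172-35875402, 5171 bp past the TSS) had 36 fragments at its summit, with a fold of 26.2 and a q that was 51.8 on the −log10 scale. The locus 19376 bp upstream of NUP50, a nuclear pore protein, had a pileup of 35 and a fold of 26.4 (chr5:116296739-116296991). The locus 5198 bp upstream of GIPC2, a scaffold protein with a PDZ domain, had a pileup of 29 and a fold of 14.1. DNAJC27, a small GTPase with a DnaJ domain, had 3 loci in C14 and none in C13, with pileups of 26, 12 and 12, of which the last 2 share an interval 34518 bp upstream. The locus 23370 bp past the TSS of POMK, a kinase of the sugar chain on dystroglycan, had a pileup of 19 and a fold of 14.7 in an interval 946 bp wide, the widest of these loci. The absence of a locus from the C13 list says that no peak passed the caller there, not that 8-oxoG was absent, and the coverage of C13 at these places was not analysed here.

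Among the C13 loci without overlap, high values were seen at DHX15, MTTP and CCR2. The locus 52093 bp upstream of DHX15, an RNA helicase of the spliceosome, had a pileup of 19 and a fold of 16.3 (chr6:45735680-45735892), and the nearest C14 locus was 29863 bp away. The locus 99158 bp past the TSS of MTTP, which loads lipid onto lipoproteins, had a pileup of 15 and a fold of 13.9. CCR2, the receptor of the monocyte chemokine CCL2, had 3 loci upstream in C13, with pileups of 13, 7 and 7 at 35055, 58418 and 69766 bp, and none in C14.

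Merged by position, the overlapping loci formed 42 shared positions at 32 genes, and where a bull had several loci at a position, the one with the highest pileup gave its values. The pileup was higher in C14 at all 42, as it was at 192 of the 194 shared positions of all classes. The median ratio of the C14 to the C13 pileup was 2.44 (order-statistic 95% interval 2.06 to 2.83, range 1.18 to 7.0), and 17 positions exceeded 2.66, the ratio of the lowest backgrounds. With each pileup divided by the lowest background of its list the median ratio was 0.916 (0.775 to 1.06), a value that depends on this choice of scale. The fold enrichment was higher in C14 at 22 positions and lower at 20, with a median ratio of 1.07 (0.791 to 1.33, range 0.36 to 3.67), and over all classes the median was 1.02. The local background was higher in C14 at 41 of the 42, with a median ratio of 6.51. At those 41 the 1 added to each term weighed more on the C13 fold, so the fold ratio is not a plain ratio of enrichment over input. Library depth and the amount of 8-oxoG cannot be told apart in these ratios with 1 library per bull. The summits were a median of 29.5 bp apart and 28 of the 42 pairs lay within 50 bp. Over all classes the median was 17 bp and 147 of the 194 pairs lay within 50 bp.

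**Figure D3:**
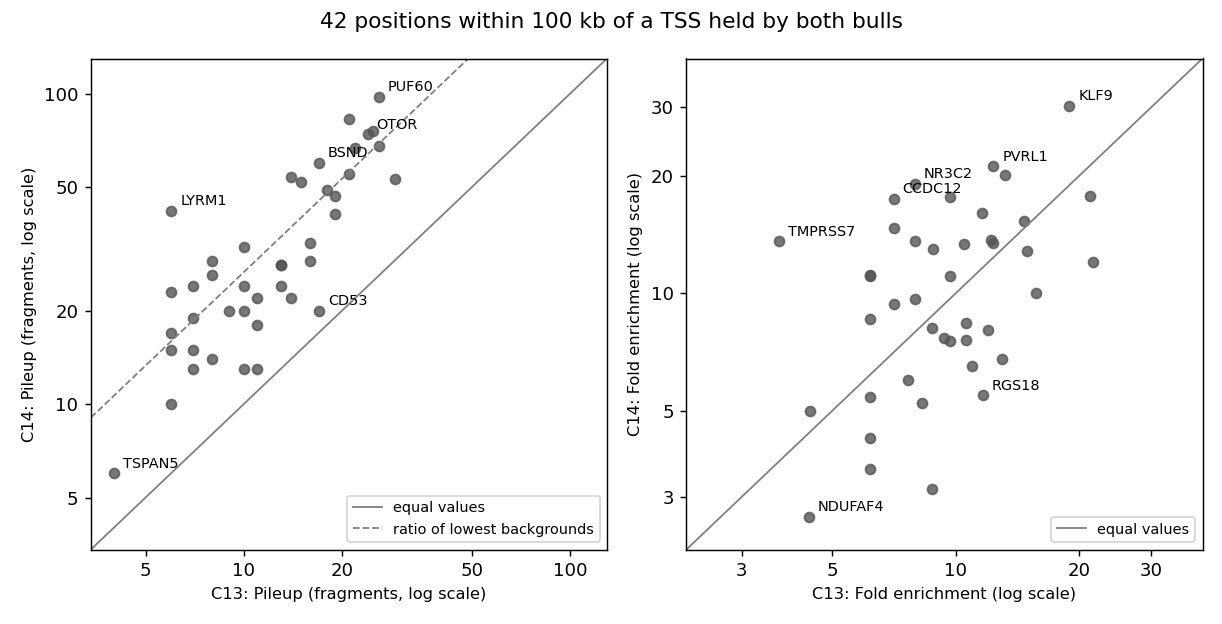
Pileup at the summit (left, fragments) and fold enrichment over input (right) in C14 against C13 on log axes, 1 point for each of 42 shared positions, with a solid line for equal values and a dashed line for the ratio of the lowest backgrounds, 2.66. All 42 points lie above the line of equal pileup, and 22 lie above the line of equal fold.

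The highest C14 fold among the shared positions was at KLF9, 5748 bp upstream (chr8:46913508-46913793). Its pileup was 21 in C13 and 55 in C14 and its fold was 18.9 and 30.3. A further shared position 6445 bp upstream of KLF9 (chr8:46914148-46914428) had pileups of 21 and 83 and folds of 12.2 and 13.7. Both KLF9 positions were thus enriched in both bulls, the nearer with less background.

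Other transcription factors and nuclear receptors with shared positions were SIX2, NR3C2, ZNF75D and ZNF596. SIX2, a homeobox factor of kidney progenitors, had pileups of 19 and 41 at 42899 bp upstream, and 11 and 22 at 45373 bp. NR3C2, the mineralocorticoid receptor, had pileups of 8 in C13 and 26 in C14 and folds of 7.93 and 19.1 at 14426 bp upstream (chr17:9727421-9727797). C14 had a second locus at NR3C2, 13965 bp upstream, with a pileup of 12. ZNF75D, a zinc finger protein on the X chromosome, had pileups of 6 and 23, and ZNF596 had 6 and 10, with a lower fold in C14, 4.26 against 6.17.

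Among membrane and secreted proteins, PVRL1, the adhesion molecule nectin-1, had pileups of 13 and 28 and folds of 12.3 and 21.2 at 74287 bp upstream. INSL5, a peptide hormone of the gut, had its loci 13508 bp past the TSS in 1 interval that each list splits into 2 subpeaks, with pileups of 14 and 12 in C13 and 54 and 21 in C14. OTOR had pileups of 24 and 74 at its higher summits and folds of 21.3 and 17.7. BSND, a subunit of kidney and ear chloride channels, had pileups of 17 and 60 and folds of 9.38 and 7.68. The positions of OTOR and BSND thus had a pileup ratio over 2.66 with a lower fold in C14. TMX3, a disulfide isomerase of the endoplasmic reticulum, had pileups of 18 and 49 and folds of 14.9 and 12.9.

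The extremes of the ratios lay elsewhere. The pileup ratio was lowest, 1.18, at CD53, a leukocyte tetraspanin, with pileups of 17 and 20, and at 1 position of MPZL1 with 11 and 13. It was highest, 7.0, at LYRM1, with pileups of 6 and 42 and a background of 0.135 in C13 and 6.93 in C14. The fold ratio was highest, 3.67, at TMPRSS7, 5320 bp upstream, where the fold was 3.70 in C13 and 13.6 in C14 and the background was 5.21 and 4.0, the single shared position with less background in C14. The C14 interval there holds 2 subpeaks, and the one with the lower pileup, 27, had a fold of 3.89, close to that of C13, so the high ratio rests on which subpeak is taken. At the other TMPRSS7 position, 4468 bp upstream and under 1 kb away, the fold was 8.74 in C13 and 3.15 in C14, the lowest ratio, 0.36. At RGS18, a regulator of G-protein signalling in blood cells, pileups were 19 and 47 and folds 11.6 and 5.47, with backgrounds of 0.720 and 7.77. At NDUFAF4, an assembly factor of complex I, pileups were 25 and 76 and folds 4.38 and 2.67, with backgrounds of 4.94 and 27.9.

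Many of the loci came in runs near the same gene. Runs and genes with several loci were not counted over all listed loci, so these values cannot be set against the whole lists. Counted as distinct intervals, 46 of 82 in C13 (56.1%) and 60 of 127 in C14 (47.2%) lay within 100 kb of another of these loci, in 18 and 21 runs. With 10 kb in place of 100 kb these were 31 and 46 intervals. Of the 56 genes of C13, 8 held 3 or more loci and together 27 loci, and of the 88 genes of C14, 12 held 3 or more and together 45 loci.

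FMR1NB, a germ cell antigen gene next to FMR1 on the X chromosome, had the run with the most intervals, 7 in C14. C13 had 3 loci there, 17121, 15868 and 14105 bp upstream, with pileups of 26, 14 and 10, and all 3 overlapped C14 loci. C14 had 8 loci in 7 intervals spread over 6982 bp (chrX:30971658-30978639), between 11101 and 17838 bp upstream. Their pileups ran from 11 to 68 and 3 of the 8 did not overlap a C13 locus. The strongest of those 3 had a pileup of 35 and a fold of 19.8 and lay 427 bp from a C13 locus.

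MPZL1, a cell-surface glycoprotein gene, had 4 loci in C13 with pileups of 10, 6, 11 and 5 and 3 in C14 with pileups of 20, 15 and 13, and its 3 C14 loci overlapped C13 loci. ZNRF2, an E3 ubiquitin ligase, had 4 in each bull, with pileups of 7 to 10 in C13 and 13 to 22 in C14, at 71204 to 94561 bp upstream, and 3 in each bull overlapped. INTS10, a subunit of the Integrator complex that processes small nuclear RNAs, had 3 loci in C13 and 4 in C14, of which 1 in each overlapped. At these genes both bulls thus had runs.

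Other runs were fuller in 1 bull. LYRM1, a LYR motif protein gene, had 4 loci in C13 and 2 in C14, and LRRC71, a leucine-rich repeat gene, had 3 and 1. RPL10L, a ribosomal protein retrogene expressed in the testis, had 3 in C13, 2 of them subpeaks, and 1 in C14, with pileups of 15 and 52 at the shared summit. BRINP1, a neural gene induced by BMP and retinoic acid, had 4 loci in C14 with pileups of 10 to 20 and 1 in C13 with a pileup of 5, and none overlapped. TFF3, a trefoil peptide of mucosa, had 4 loci in C14 and 1 in C13. TSPAN5, a tetraspanin, had 3 and 2, and ZNF75D had 3 and 2. PPP2R2A, a regulatory subunit of protein phosphatase 2A, had 3 in C14 with pileups of 18, 16 and 11 and none in C13. Loci of other classes or distances bring PPP2R2A to 4 loci in C13 and 9 in C14, so it is a gene of both lists. They also bring BRINP1 to 3 loci in C13 and 6 in C14, and LYRM1 to 6 and 4, while the other genes of this paragraph keep their counts. Whether these counts differ between the bulls could not be tested with 1 library each.

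**Figure D4:**
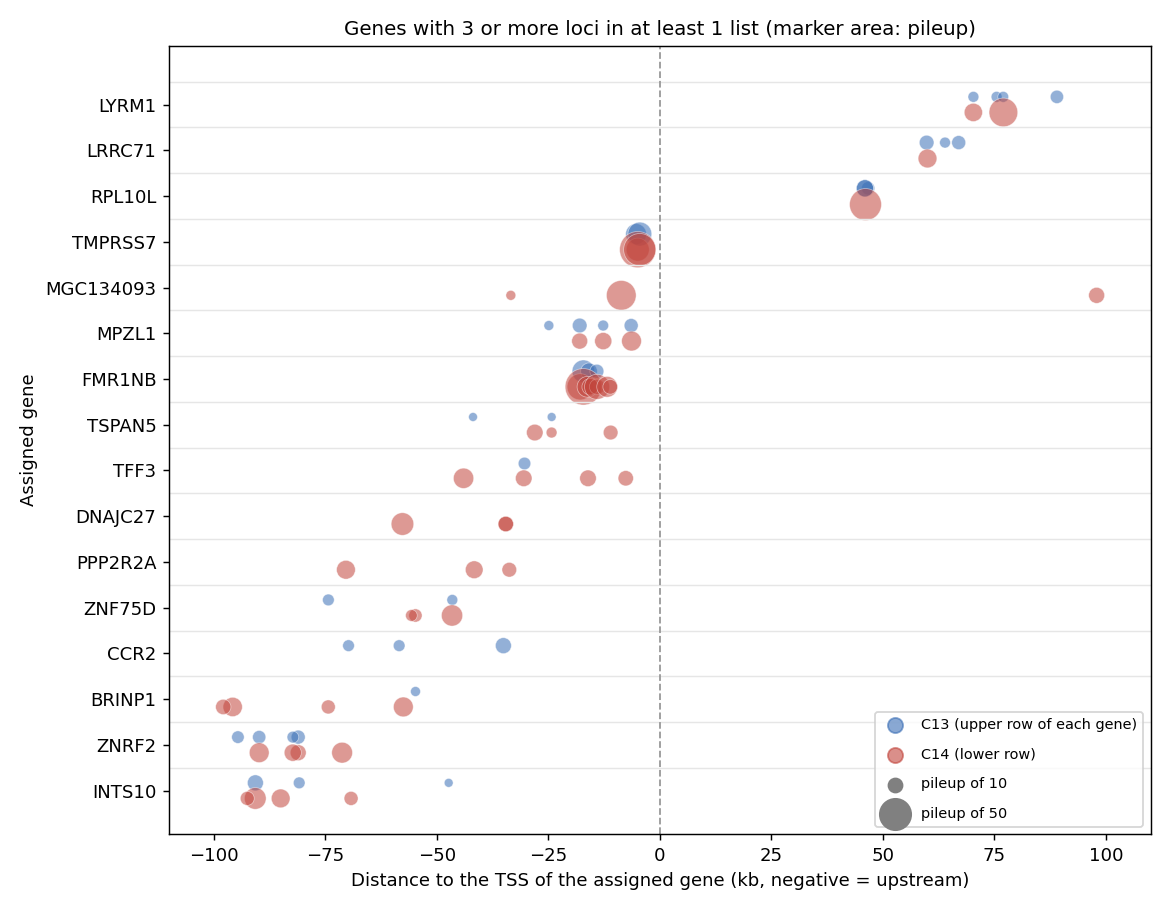
Distal intergenic 8-oxoG loci of the 16 genes with 3 or more loci in at least 1 list, by distance to the TSS (kb, negative values upstream), with C13 in the upper row and C14 in the lower row of each gene and marker area in proportion to pileup. FMR1NB has 3 loci in C13 and 8 in C14 within a short stretch upstream, while CCR2 has loci in C13 alone and DNAJC27 in C14 alone, and PPP2R2A has such loci in C14 but loci of other classes or distances in both bulls.

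The loci were assigned to 56 genes in C13 and 88 in C14. In both lists were 39 genes, which is 69.6% of those of C13 and 44.3% of those of C14, while 17 were in C13 alone and 49 in C14 alone. Over the loci of all classes 126 genes were in both lists, which is 67.0% of those assigned in C13 and 43.3% of those assigned in C14, so the shares here are close to those of the whole lists. Of those in C13 alone, 2 had a locus of another class or distance in the C14 list, and of those in C14 alone, 1 had such a locus in the C13 list. Of the 39 genes in both, 32 had a shared position and 7 did not, namely AZI2, BRINP1, DHX15, IFITM3, MAPK8, MKLN1 and PIK3R4. With a −log10 q of at least 5 required, 32 genes were in both lists, 8 in C13 alone and 26 in C14 alone.

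Grouped by words in the symbol or name, 23 genes fell into one or more of 10 groups and 82 into none. The counts are of name matches and not of gene functions. Transcription factors were 4 of the 56 genes in C13 (7.14%) and 7 of the 88 in C14 (7.95%), against 5.32% and 5.15% of the genes of all loci. The words missed KLF9, whose listed name does not say that it is a zinc finger factor. Beside the genes with shared positions above, they were FOXP4 and ZNF703 in C14, with pileups of 5 each, and ZUFSP, a zinc finger protein that is a peptidase, with a pileup of 7. Among kinases and phosphatases, MAPK8 and PIK3R4 had loci in both bulls. MAPK8, a stress-activated kinase also called JNK1, had a locus 79598 bp upstream with a pileup of 5 in C13 and one 93483 bp upstream with a pileup of 16 in C14. Receptors and channels were 4 genes in C13 (7.14%) and 3 in C14 (3.41%), against 9.57% and 7.56% of the genes of all loci. The words missed BSND, described above as a subunit of chloride channels, which had loci in both bulls. NR3C2 and PVRL1 were in both, with CCR2 and CHRM3 in C13 and S1PR1 in C14, where S1PR1, a receptor of sphingosine-1-phosphate, had a pileup of 21.

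No gene with these loci matched the words for sperm and testis, against 3 of 188 genes in C13 (1.60%) and 3 of 291 in C14 (1.03%) over all loci, although CETN1, FMR1NB and RPL10L, described above, are known to be expressed in the testis under names that do not say so. GSG1, listed as germ cell associated 1, was missed too and had a C14 locus 93124 bp upstream with a pileup of 10 and a fold of 6.51. Phospholipases were PLA2G2E and PLA2G7, both in C14 alone, with pileups of 14 and 56 upstream at 22161 and 48183 bp. They are 2.27% of the 88 genes, against 1.37% of the C14 genes of all loci, and over all loci of C13 there was none. Golgi and glycosylation genes were HS3ST5, a heparan sulfate sulfotransferase with a pileup of 40 at a background of 5.43, and POMK, both in C14 alone and 2.27% of its genes, against 3.44% over all loci of C14 and 2.13% over all loci of C13. The words missed AP1S1, a subunit of the AP-1 clathrin adaptor that works at the Golgi, with a shared position 62441 bp past the TSS and pileups of 16 and 29. They also missed SEC22C, listed as a vesicle trafficking protein, and ACER2, an alkaline ceramidase, both in C14 alone with pileups of 14. The single DNA repair match in each bull was DHX15, which is an RNA helicase and not a repair enzyme, and it made up 1.79% of the genes in C13 and 1.14% in C14, against 1.60% and 1.37% over all loci. The repair words did not match NABP1, the single-stranded DNA-binding protein with a C14 locus given below. The single oxidative stress match in each bull was TMX3, with a shared position, against 1.06% and 1.37% over all loci. MIR2285C was the only miRNA gene of these loci, again 1.79% and 1.14% of the genes, against 1.60% and 2.75% over all loci. It had a shared position 94054 bp past the TSS (chr26:47090472-47090677) and pileups of 7 and 19. No adhesion gene matched, against 3 of 188 genes in C13 and 8 of 291 in C14 over all loci, but the words missed at least PVRL1, described above as an adhesion molecule.

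Downstream loci near a TSS ranged widely in pileup, from the high values of CETN1, INSL5, BSND and IFITM3 given above to low ones. NDUFB2 and NT5M, a mitochondrial nucleotidase, had 1 locus each in C13 with pileups of 5, and PAGE4, a gene of the prostate-associated family, had 1 with a pileup of 4. In C14, NDUFA4, of the respiratory chain, and NABP1, a single-stranded DNA-binding protein, had 1 locus each with pileups of 6. PUF60, a splicing factor, had a shared position 24428 bp past the TSS (chr14:2189427-2189899) with pileups of 26 and 98 and folds of 8.75 and 8.15, and CCDC12, a coiled-coil protein, had one 44745 bp past the TSS with pileups of 7 and 24 and folds of 7.05 and 17.5. The upstream locus of PIK3R4, a subunit of the class III phosphoinositide 3-kinase, was 17033 bp away in C13 with a pileup of 9 and 4710 bp away in C14 with a pileup of 17.

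The loci lay on 23 chromosomes in C13 and 30 in C14. Chromosome 3 held 11 of the 86 loci of C13 (12.8%) and 10 of the 134 of C14 (7.46%), against 3.51% and 2.77% of all loci. The X chromosome held 6 in C13 (6.98%) and 13 in C14 (9.70%), against 2.97% and 2.93% of all loci, and FMR1NB accounted for 3 and 8 of these. On chromosome 29, by contrast, 1 of 20 C13 loci and 2 of 38 C14 loci were distal intergenic and within 100 kb. These chromosomes were picked after the counts were seen, and no test was made of them.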

How the data were processed

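The 4 libraries were 8-oxoG-enriched and input sperm DNA of C13 and C14. Paired-end reads of 101 bp were mapped by the authors to bosTau8 (Isaac aligner), Picard served to drop duplicates, and MACS2 peaks of each 8-oxoG library over the input of that bull, annotated by ChIPseeker, were retained at a fold over 2 and a q under 0.05. The deposited pileup is a signal in fragments, not normalized between the bulls. The deposited fold enrichment is a ratio with 1 added to both terms. The deposited q is a −log10 value. Read totals were not used here and depth was read from pileup and local background alone, so scaled ratios depend on that choice, and a pileup of few fragments is imprecise.

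All values here were computed from the deposited loci with pandas version 2.3.3 in Python version 3.11.15. To obtain the local background, 1 was added to the pileup, the sum was divided by the fold and 1 was taken off. Shares were compared with two-sided Fisher's exact tests in scipy version 1.17.1. Overlaps of at least 1 bp were checked with bedtools version 2.31.1 and the scripts were tested on simulated loci. Subpeaks of an interval were counted as separate loci unless distinct intervals are named. The loci, gene lists and groups were chosen with earlier results of these data known. Genes were named by rule: those with 3 or more loci in a list, the 5 highest pileups, the 5 nearest to the TSS on each side, the 10 shared positions with a −log10 q of at least 5 in both lists and the highest C14 fold, the genes of the sperm, repair, Golgi, phospholipase, miRNA and oxidative stress groups, and the 2 loci on either side of the limit. ACER2, AP1S1, AZI2, BSND, CD53, FOXP4, GIPC2, GSG1, MAPK8, MKLN1, NUP50, RGS18, RPS15A, S1PR1, SEC22C, ZNF596, ZNF703 and ZUFSP were named after their values were seen. Gene symbols were looked up in a RefSeq table of ARS-UCD2.0, in which 104 of the 105 were found, for names and chromosomes only. No replicate libraries, reads, coverage outside the loci or sequences were analysed here. Alternatives were stricter q limits, distance limits of 50 and 150 kb, distinct intervals, 1 locus per gene, no genes of 5 or more loci, distance from the summit, a stricter and a looser overlap rule, a link of 10 kb, the other list in any class, pileups over the lowest background and the removal of loci with high background, the last added after the data were seen.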

Additional observations from a re-analysis of the deposited data

How the results depend on the processing

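Over the alternatives tried, 143 of 167 values stayed on their side of 0.05 where tested, within their interval where they had one, and within 1.5 times where they were counts. Among these, the median fold ratio at shared positions was 0.988 with a reciprocal overlap rule, below 1 in place of above it, and a limit of 150 kb gave 123 loci in C13, 198 in C14 and 68 genes in C14 alone, while a link of 10 kb left 31 intervals of C13 in runs. With a −log10 q of at least 5, the overlap shares were 67.7% in C13 and 45.7% in C14, the median folds 8.75 and 8.37, the median pileup of C14 20, the upstream share of C14 16.5 points above that of C13 (Fisher's exact test, p = 0.0220), and the genes in C13 alone and C14 alone 8 and 26. A limit of 50 kb left 48 loci in C13 and 83 in C14, which were 13% and 13.5% of all loci and 16.9% and 18.1% of distal loci, with 21 genes in both lists and 11 in C13 alone. At that limit the share of all loci was 0.545 points higher in C14 (exact p = 0.847) and the overlap share of C13 was 5.72 points above that of the other distal loci (exact p = 0.523), both the opposite sign from the 100 kb limit. A limit of 150 kb gave 33.2% and 32.2% of all loci and 43.3% and 43.1% of distal loci. Without loci over 10 times the lowest background, an alternative added after the data were seen, the overlap difference of C13 was 2.84 points and also changed sign (exact p = 0.685). Pileups over the lowest background of each list gave a median ratio of 0.916 at shared positions. The exact p of the upstream difference ran from 0.0220 to 0.578 over 9 alternatives, that of the overlap difference from 0.237 to 0.741 in C13 and from 0.0829 to 0.902 in C14 over 11, and that of the share of all loci from 0.456 to 0.847 over 5. With 1 locus per gene, or without genes of 5 or more loci, the other distal loci they were compared with were left whole. The lowest p of the overlap difference came from the latter setting in C13 and from the former in C14. Loci with a pileup of 7 or less rest on few fragments, and at this depth their absence from the other list cannot be read as a difference. No paired analysis was possible because each bull gave 1 library of each kind.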
